A study of Homo sapiens with 4 samples.

Results

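The miRNAs miR-105 and miR-767 were followed through the small RNA libraries of 2 hepatoma cell lines and the stem-like cells derived from them. The rule took the rows named hsa-miR-105, hsa-miR-767-5p and hsa-miR-767-3p, which gave 3 members among the 1733 mature miRNAs listed for each library. Hep3B and Huh7 (HCC cells) are established human hepatoma lines, and Hep3B-C and Huh7-C (hepatic cancer stem cells, HCSCs) are the stem-like cells cultured from each of them. Each of the 4 conditions had 1 library and no replicates, so no difference between conditions could be tested against the spread between cultures, and each HCSC population is a single derivative of its line. The members were selected on their counts in these same 4 libraries, and their levels and ratios are therefore given as a description without p-values.

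MiRNAs are cut as hairpins from longer transcripts, and each hairpin can yield a mature strand from its 5′ arm and another from its 3′ arm. The mature strand guides a silencing complex to target mRNAs mainly through its bases 2 to 8, the seed. The miR-105 and miR-767 hairpins lie inside GABRA3, which codes for a subunit of a receptor for the inhibitory transmitter GABA. They are known as cancer-germline miRNAs, since they are silent by DNA methylation in most adult tissues, are expressed in the testis, and become active in tumors whose DNA has lost methylation there. MiR-767 is known to repress TET1 and TET3, enzymes that oxidize methylated cytosine, and miR-105 is known to repress TJP1, a tight junction protein.

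In GENCODE release 29 (GRCh38), the 3 hairpins lay on the minus strand of chromosome X within 2274 bases, in intron 1 of a GABRA3 transcript of 10 exons. GABRA3 spans chrX:152166234-152451358 on the same strand, and its 3 other annotated transcripts do not reach the hairpins. In the direction of transcription MIR105-2 (chrX:152394412-152394492) came first, then MIR767 (chrX:152393421-152393529) after 882 bases, then MIR105-1 (chrX:152392219-152392299) after another 1121 bases. The hairpins are printed from RefSeq (GRCh38.p14), 5′ to 3′, to show where each counted strand sits, with both mature arms in capitals.
MIR105-2: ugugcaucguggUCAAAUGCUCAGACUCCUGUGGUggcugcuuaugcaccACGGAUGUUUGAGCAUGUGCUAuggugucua
MIR767: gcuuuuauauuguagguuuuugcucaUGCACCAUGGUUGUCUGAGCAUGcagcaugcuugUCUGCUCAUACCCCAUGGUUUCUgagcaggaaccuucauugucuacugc
MIR105-1: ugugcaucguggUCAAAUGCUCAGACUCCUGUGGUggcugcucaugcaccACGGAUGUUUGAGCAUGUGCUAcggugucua

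The MIR105-1 and MIR105-2 hairpins differed at 2 bases, of which 0 lay in a mature arm. Reads of hsa-miR-105 can therefore come from either hairpin, and the count of hsa-miR-105 cannot be divided between them. Reads of hsa-miR-767-5p and hsa-miR-767-3p have a single hairpin as their source in this annotation.

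The mature strands are given with the seed (bases 2 to 8) in capitals, because the seeds set the members apart from each other. Hsa-miR-105 is the 5′ arm and hsa-miR-105* the 3′ arm of the miR-105 hairpins.
hsa-miR-105: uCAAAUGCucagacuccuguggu
hsa-miR-105*: aCGGAUGUuugagcaugugcua
hsa-miR-767-5p: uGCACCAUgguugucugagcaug
hsa-miR-767-3p: uCUGCUCAuaccccaugguuucu

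No seed was shared among these strands. Among 2370 mature human sequences in RefSeq, the seed of hsa-miR-105 recurred in 1 other, hsa-miR-7853-5p, which has no row in these libraries. The seeds of hsa-miR-767-5p, hsa-miR-767-3p and hsa-miR-105* recurred in 0 others.

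The seed of hsa-miR-767-5p was found in the miR-29 family shifted by a base. Its bases 2 to 8 were identical to bases 3 to 9 of hsa-miR-29a, hsa-miR-29b and hsa-miR-29c. The shared bases are in capitals.
hsa-miR-767-5p: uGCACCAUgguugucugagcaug
hsa-miR-29a: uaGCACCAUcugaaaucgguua
hsa-miR-29b: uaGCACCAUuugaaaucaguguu
hsa-miR-29c: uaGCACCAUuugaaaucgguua

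These 4 were the mature sequences, of 2370 (0.169%), that held GCACCAU at bases 2 to 8 or 3 to 9. A further stretch joined the members themselves: bases 5 to 14 of hsa-miR-105 were complementary to bases 13 to 22 of hsa-miR-767-5p, over 10 consecutive Watson-Crick pairs. Of the 2369 other mature sequences, 1 (0.0422%), hsa-miR-105 itself, had a complementary stretch of at least that length to hsa-miR-767-5p. The paired bases are in capitals.
hsa-miR-105: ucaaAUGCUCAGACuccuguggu
hsa-miR-767-5p: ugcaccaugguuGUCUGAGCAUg
This is a property of the letters only, and pairing of the miRNAs in cells was not measured.

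Mature miRNAs took 1739278 counts in Hep3B (10.4% of its total reads), against 4045199 to 5741567 counts (35.2% to 54.1%) in the others. Levels are given as TPM (counts per 1000000 total reads), the unit of the study, and beside it per 1000000 miRNA counts, since the miRNA share of total reads differed between the libraries of every comparison, least between the HCSCs. A level of 3 counts, taken here as the limit that a count of 0 allows, was 0.179 to 0.282 TPM. This limit is one-sided and lies below the upper end of the two-sided exact intervals. Of the hepatocyte miRNAs, hsa-miR-192 was abundant in all 4 libraries, hsa-miR-122 was at 23.7 TPM in Hep3B against 9707.8 to 46077.0 TPM in the others, and hsa-miR-885-5p was at 2 counts in Huh7 and 0 in Huh7-C. Among the 5 blood cell miRNAs, hsa-miR-451 had 773 counts in Huh7 and 1 or 2 in each of the others, and the list summed to 796 counts in Huh7 and 1 to 8 elsewhere. Of the 4 muscle miRNAs the sum was 16 to 139 counts, and of the 4 mesenchymal miRNAs it was 428 and 1711 counts in Hep3B and Hep3B-C and 51 and 19 in Huh7 and Huh7-C, with hsa-miR-143 the highest. Whether the blood cell, muscle and mesenchymal miRNAs came from the hepatoma cells or another source was not tested. Their part in the results was not tested either.

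Both lines carried reads of the locus, with far more of them in the Huh7 libraries. Hsa-miR-105 had 33 counts in Hep3B and 250 in Hep3B-C, beside 593 in Huh7 and 977 in Huh7-C. These were 1.97 TPM (95% exact Poisson interval 1.35 to 2.76) and 16.2 TPM (14.2 to 18.3) for the Hep3B pair, and 55.8 TPM (51.4 to 60.5) and 91.2 TPM (85.6 to 97.1) for the Huh7 pair. Its order was Hep3B, Hep3B-C, Huh7 and Huh7-C from lowest to highest, no neighbouring intervals met, and the order was the same per 1000000 miRNA counts (19.0, 46.0, 103.3 and 241.5).

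Hsa-miR-767-5p, the strand with the miR-29-like seed, had 32 counts in Hep3B and 142 in Hep3B-C, beside 816 in Huh7 and 519 in Huh7-C. Its levels were 1.91 TPM (interval 1.30 to 2.69), 9.20 TPM (7.75 to 10.8), 76.8 TPM (71.6 to 82.3) and 48.4 TPM (44.4 to 52.8). In contrast to hsa-miR-105, its highest level was that of Huh7 rather than Huh7-C. Per 1000000 miRNA counts the values were 18.4, 26.2, 142.1 and 128.3, and the intervals met between Hep3B and Hep3B-C and between Huh7 and Huh7-C.

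Hsa-miR-767-3p, the opposite arm of the same hairpin, was counted in the Huh7 line and mostly in the parent. It had 130 counts in Huh7 (12.2 TPM, interval 10.2 to 14.5), 3 counts in Huh7-C (0.280 TPM, interval 0.0577 to 0.818) and 0 counts in Hep3B and Hep3B-C, which allows up to 0.179 and 0.194 TPM. Hsa-miR-105*, which the rule did not take, had 0 counts in Hep3B and 3 in Hep3B-C (0.194 TPM), and 32 in Huh7 (3.01 TPM) and 41 in Huh7-C (3.83 TPM). Its level followed that of its partner hsa-miR-105 in being highest in Huh7-C, although the intervals of Huh7 (2.06 to 4.25 TPM) and Huh7-C (2.75 to 5.19 TPM) overlapped. By counts, hsa-miR-105 ranked 252 of the 674 miRNAs found in Hep3B and 85 of 664 in Huh7-C, and hsa-miR-767-5p ranked 255 in Hep3B and 103 in Huh7-C. All intervals on levels, ratios and shares cover counting error only, and reads without molecular identifiers are not independent molecules.

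**Figure D1:**
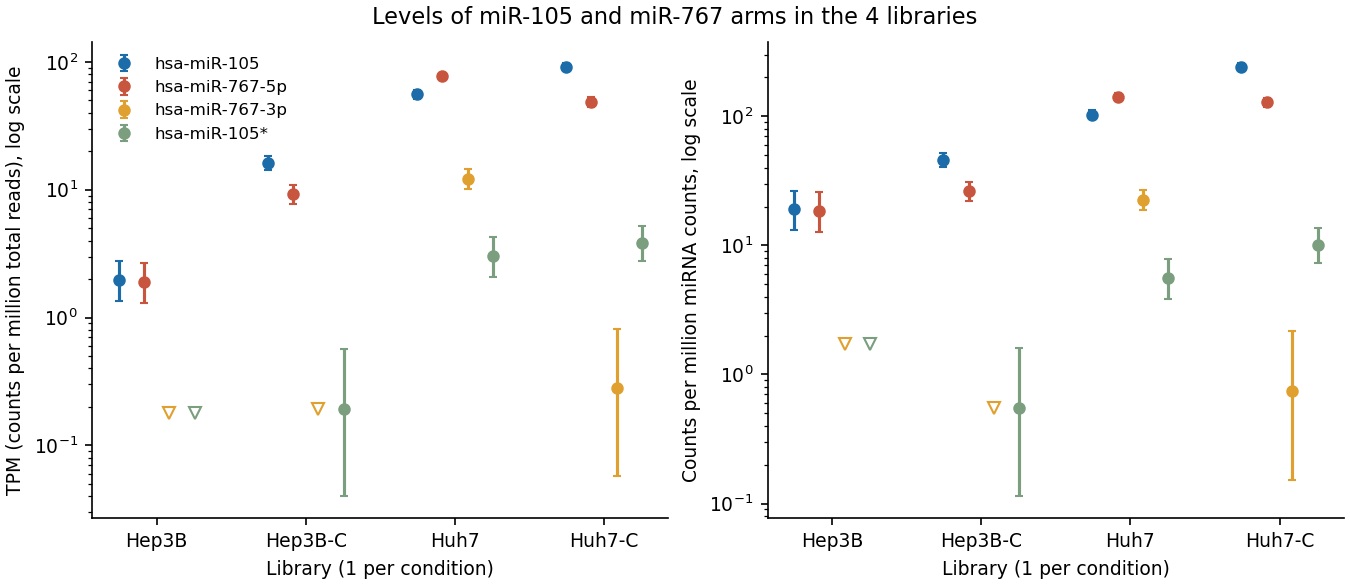
Level of each strand in each library, as TPM (left) and per 1000000 miRNA counts (right), both on log axes. Points are single libraries with 95% exact Poisson intervals and open triangles mark a count of 0 at the level of 3 counts, and hsa-miR-105 is highest in Huh7-C and hsa-miR-767-5p in Huh7, and hsa-miR-767-3p reaches 12.2 TPM in Huh7 against 0.280 TPM in Huh7-C.

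HCSCs were compared with their HCC cells to see whether these miRNAs differ in the stem-like cells. Ratios are on the log2 scale with 0.5 counts added to each count, with intervals from the exact binomial distribution of both counts given their sum. In the Hep3B pair, hsa-miR-105 was higher in Hep3B-C by a log2 ratio of 3.02 (interval 2.51 to 3.61) and hsa-miR-767-5p by 2.25 (1.71 to 2.87). Both members that reached 10 counts in a library of the pair thus stood at least 2-fold higher, where 66.5% of the 475 miRNAs with such counts did and 5.05% stood at least 2-fold lower, so a difference of that size was the common case in this pair. The median over all 475 was 1.42 and the median over the 2 members 2.64. Set against the miRNA counts of each library, the ratios were 1.26 (0.75 to 1.85) for hsa-miR-105 and 0.49 (-0.05 to 1.11) for hsa-miR-767-5p, and the second was no longer 2-fold. On that scale 19.4% of miRNAs were at least 2-fold higher and 25.1% at least 2-fold lower, and the median of all was -0.34. No ratio was formed for hsa-miR-767-3p, at 0 counts in both libraries.

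In the Huh7 pair the 3 members stood apart from each other. Hsa-miR-105 was higher in Huh7-C by a log2 ratio of 0.71 (interval 0.56 to 0.86), hsa-miR-767-5p was lower by -0.66 (-0.83 to -0.50), and hsa-miR-767-3p was lower by -5.23 (-7.75 to -3.87). In TPM, hsa-miR-767-3p was 43.7 times as high in Huh7 as in Huh7-C, a ratio that rests on 3 counts. Of the 431 miRNAs that reached 10 counts in Huh7 or Huh7-C, 7.42% were at least 2-fold higher and 37.4% at least 2-fold lower in Huh7-C, and hsa-miR-767-3p was the member among the latter. It reached 10 counts through Huh7 alone, the library where it was high. With total reads, a miRNA that enters in this way is lower in Huh7-C whatever the size of the difference. The place of hsa-miR-767-3p among the lower miRNAs is therefore not read as support for a difference. The ratio of hsa-miR-767-5p equalled the median of all miRNAs (-0.66), while 88.9% of miRNAs had a lower ratio than hsa-miR-105. Per miRNA counts, hsa-miR-105 passed 2-fold (1.23, interval 1.08 to 1.38), hsa-miR-767-5p was near 0 (-0.15, interval -0.31 to 0.01) and hsa-miR-767-3p stayed far lower (-4.72, interval -7.23 to -3.35). On that scale 15.3% of miRNAs were at least 2-fold higher and 24.4% at least 2-fold lower. The summed counts of the 3 members, 1539 in Huh7 and 1499 in Huh7-C, hid these differences, with a log2 ratio of -0.05 (-0.15 to 0.05).

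The parent lines differed more than any HCSC from its parent in hsa-miR-105 and hsa-miR-767-5p. Against Hep3B, the Huh7 log2 ratio was 4.81 (interval 4.32 to 5.38) for hsa-miR-105 and 5.31 (4.82 to 5.89) for hsa-miR-767-5p, and hsa-miR-767-3p, with 0 counts in Hep3B, was at least 68.5-fold higher with 3 counts set for Hep3B and no error on the 130 counts of Huh7. The two-sided exact interval of that log2 ratio began lower, at 5.78. Hsa-miR-105 and hsa-miR-767-5p, which had at least 10 counts in both libraries, were at least 2-fold higher, beside 57.8% of 476 miRNAs (18.3% were at least 2-fold lower) and a median of 1.59. Per miRNA counts the ratios were 2.42 and 2.93 and the bound 13.1-fold, with 24.8% of miRNAs at least 2-fold higher, 47.5% at least 2-fold lower and a median of -0.79. This comparison uses the same Hep3B and Huh7 libraries as those of the pairs and is not separate evidence for either.

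Between the HCSCs the ratios were smaller than between the parents with total reads, and nearly the same for hsa-miR-105 per miRNA counts. Against Hep3B-C, the Huh7-C log2 ratio was 2.49 (interval 2.29 to 2.70) for hsa-miR-105 and 2.39 (2.13 to 2.68) for hsa-miR-767-5p. Both were at least 2-fold higher, which 22.7% of 502 miRNAs were (46.8% were at least 2-fold lower), and the median of all was -0.82. Per miRNA counts they were 2.39 and 2.29, with 21.9% of miRNAs at least 2-fold higher, 49.0% at least 2-fold lower and a median of -0.92. The library size moved the difference between the parents far more than that between the HCSCs. For hsa-miR-767-3p, 3 counts against 0 gave no ratio.

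**Figure D2:**
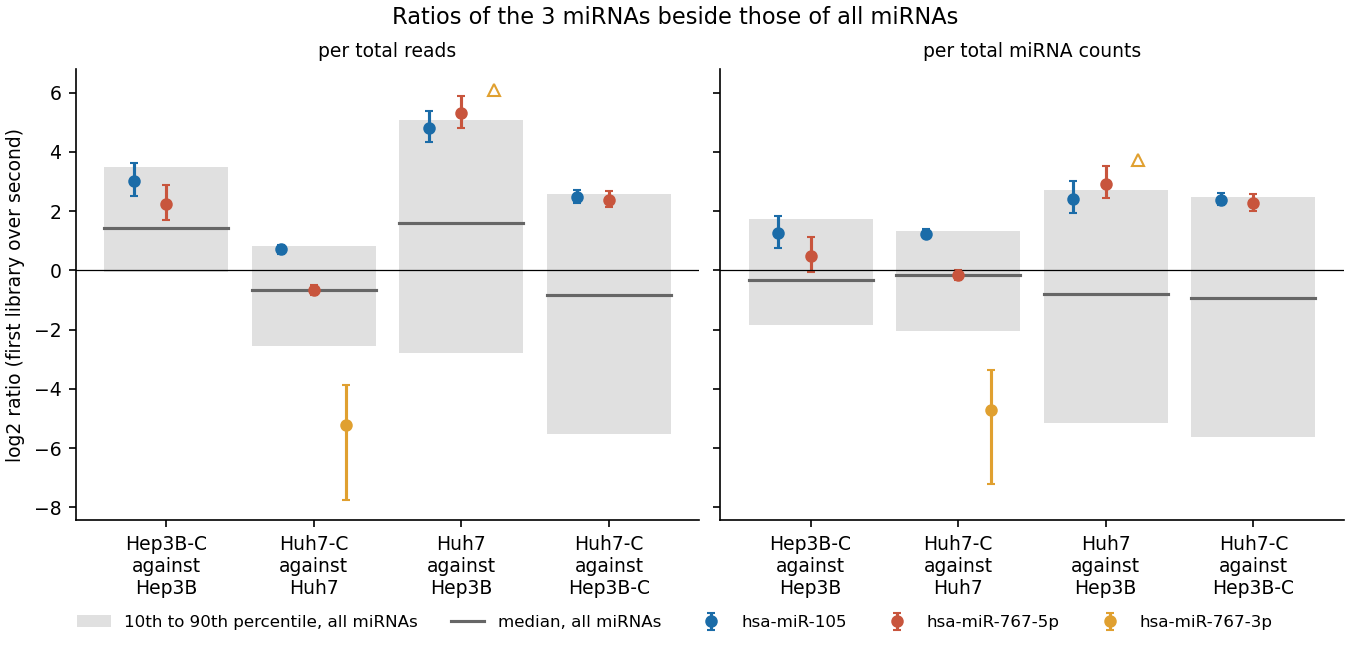
Log2 ratio of each member in 4 comparisons, with total reads (left) or total miRNA counts (right) as library sizes. Points carry 95% exact binomial intervals, the open triangle is the lower bound of hsa-miR-767-3p with 3 counts set for Hep3B, and grey bars and lines give the 10th to 90th percentile and the median of all miRNAs compared, and hsa-miR-105 lies above the median in each comparison.

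The ratio of hsa-miR-105 to hsa-miR-767-5p within a library does not depend on the library size, and it was examined after the counts had been seen. Hsa-miR-105 made up 50.8% of the counts of both strands in Hep3B (95% Clopper-Pearson interval 38.1% to 63.4%, 65 counts) and 63.8% in Hep3B-C (58.8% to 68.5%, 392 counts), and 42.1% in Huh7 (39.5% to 44.7%, 1409 counts) and 65.3% in Huh7-C (62.8% to 67.7%, 1496 counts). The shares of the HCSCs were close to each other, with an odds ratio of 1.07 (interval 0.841 to 1.36) between them. In the Huh7 pair the odds of hsa-miR-105 were 2.59 times as high in Huh7-C (interval 2.22 to 3.02). In the Hep3B pair they were 1.71 times as high in Hep3B-C, with an interval of 0.97 to 3.0. This interval holds 1 on counting error alone, given the 65 counts of Hep3B. Strands of different sequence are captured with different efficiency during library preparation. The shares here are therefore shares of counts, to be compared between libraries, and are not read as proportions of the molecules in a cell.

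Neighbouring hairpins across the genome, with the miR-105 and miR-767 pair among them, were used to see how much such a ratio moved in general. Of hairpins within 10 kb on the same strand, pairs of main arms with at least 30 counts in each library gave 61 pairs in the Huh7 comparison, formed by 56 miRNAs, so the pairs are not independent. Their ratio moved by a median of 0.78 on the log2 scale (quartiles 0.40 and 1.32). The shift between hsa-miR-105 and hsa-miR-767-5p was 1.37, and 14 of the 61 pairs shifted more. In the Hep3B pair it was 0.77 beside a median of 0.68 over 65 pairs, of which 30 shifted more. Some of these miRNAs, such as hsa-miR-29b and hsa-miR-24, also come from hairpins at other loci, so their shifts need not be shifts between neighbours. Against this mixed background, the shift of the miR-105 to miR-767 ratio was above the median in the Huh7 pair but below the largest shifts.

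The arms of miR-767 stood further apart between Huh7 and Huh7-C. Hsa-miR-767-3p made up 13.7% of the counts of both arms in Huh7 (interval 11.6% to 16.1%, 946 counts) and 0.575% in Huh7-C (0.119% to 1.67%, 522 counts). It had 0 of 142 counts in Hep3B-C, which allows a share of up to 2.11% (two-sided exact interval up to 2.56%), and 0 of 32 in Hep3B, which allows up to 9.38% (up to 10.9%). The odds of the 3′ arm were 27.5 times as high in Huh7 as in Huh7-C (interval 9.13 to 135.9). The share of hsa-miR-767-5p was accordingly 86.3% in Huh7 and 99.4% in Huh7-C. The interval of Hep3B-C, with 142 counts, lay below that of Huh7 on counting error alone, and the 32 counts of Hep3B allow little to be said.

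For the arms of miR-105 the intervals of Huh7 and Huh7-C overlapped. Hsa-miR-105* made up 5.12% of both arms in Huh7 (interval 3.53% to 7.15%, 625 counts) and 4.03% in Huh7-C (2.91% to 5.42%, 1018 counts), an odds ratio of 0.778 (0.472 to 1.29). It made up 1.19% in Hep3B-C (0.245% to 3.43%, 253 counts) and 0 of 33 counts in Hep3B, which allows up to 9.09% (up to 10.6%). The odds of hsa-miR-105* were 3.49 times as high in Huh7-C as in Hep3B-C (interval 1.10 to 17.8), on 3 counts in Hep3B-C.

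**Figure D3:**
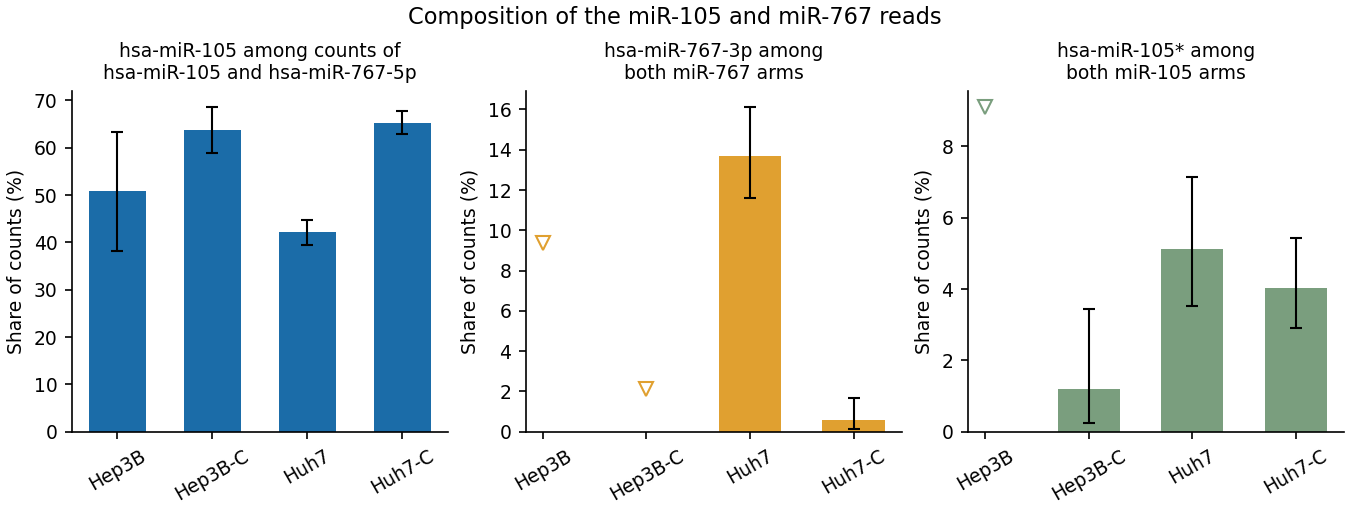
Share of hsa-miR-105 among the counts of hsa-miR-105 and hsa-miR-767-5p (left), of hsa-miR-767-3p among both miR-767 arms (middle) and of hsa-miR-105* among both miR-105 arms (right), in percent of counts, in each library. Error bars are 95% Clopper-Pearson intervals, and open triangles mark a count of 0 at the share that 3 counts allow, and the 3′ arm of miR-767 makes up 13.7% in Huh7 and 0.575% in Huh7-C.

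Less abundant arms were more often lower than higher in Huh7-C relative to their partners. Of 87 hairpins with at least 50 counts of both arms together in each library, and at least 10 of the less abundant arm over both, 65 had a lower ratio of the less abundant to the other arm in Huh7-C, with a median log2 difference of -0.57. Hsa-miR-767-3p stood at -4.57, on 3 counts in Huh7-C, and met the minimum through its 130 counts in Huh7, so its rank is not read. Hsa-miR-105* was near the median at -0.37, with 51 hairpins below it. In the Hep3B pair the median over 90 hairpins was -0.08, with 50 lower in Hep3B-C, and neither miR-105 nor miR-767 had enough counts to enter. Comparing whole hairpins in place of single strands, the odds of miR-105 over miR-767 were 2.95 times as high in Huh7-C as in Huh7 (interval 2.54 to 3.43).

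**Figure D4:**
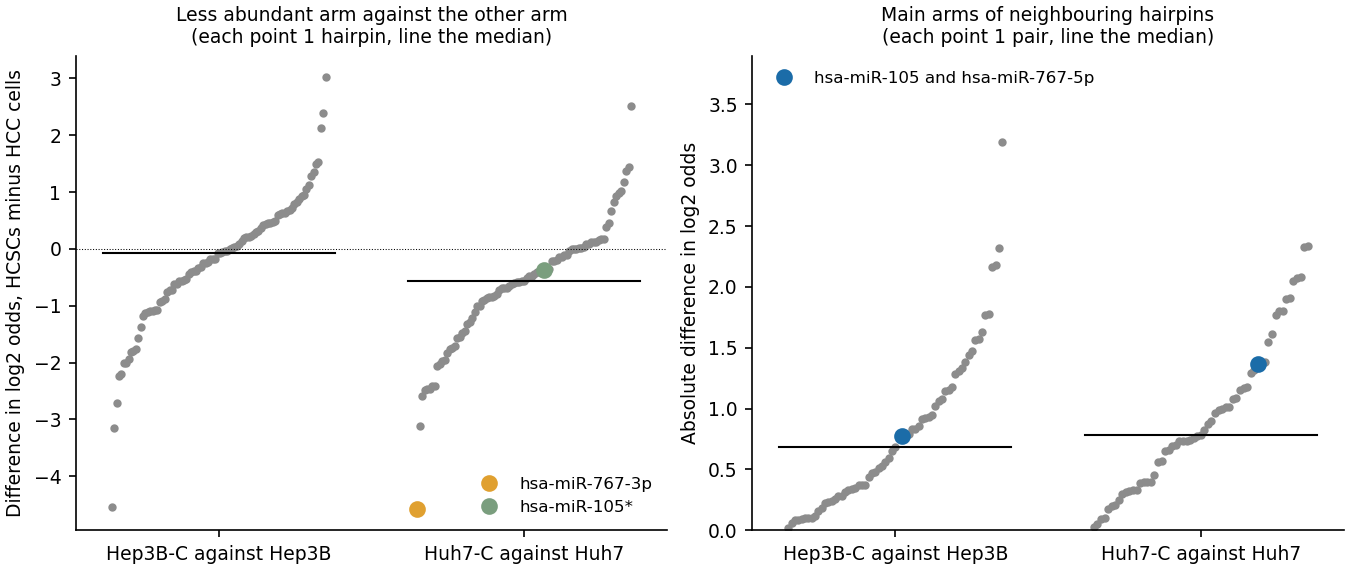
Left, the difference between HCSCs and HCC cells in the log2 odds of the less abundant arm of each hairpin, with hsa-miR-767-3p and hsa-miR-105* marked in the Huh7 pair, and right, the absolute shift in the log2 ratio of neighbouring main arms, with hsa-miR-105 and hsa-miR-767-5p marked in both pairs. Each point is a hairpin or a pair of hairpins and each line a median, hsa-miR-767-3p lies at -4.57 on the left, and the marked pair on the right lies at 0.77 and 1.37.

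The miR-29 family, which shares the 7 bases with hsa-miR-767-5p, was lower in both HCSCs in TPM for hsa-miR-29a and hsa-miR-29c. Hsa-miR-29a had 1786 counts in Hep3B (106.4 TPM), 1023 in Hep3B-C (66.3 TPM), 11462 in Huh7 (1079.1 TPM) and 1795 in Huh7-C (167.5 TPM). Its log2 ratio was -0.68 (interval -0.80 to -0.57) in the Hep3B pair and -2.69 (-2.76 to -2.62) in the Huh7 pair. Hsa-miR-29b was at 219, 215, 1697 and 285 counts in the same order, with log2 ratios of 0.09 (-0.18 to 0.37) and -2.58 (-2.77 to -2.40). Hsa-miR-29c was at 100, 33, 96 and 42 counts, with log2 ratios of -1.46 (-2.09 to -0.90) and -1.20 (-1.76 to -0.67). At least 2-fold lower stood 1 of the 3 in the Hep3B pair (5.05% of all miRNAs) and 3 of the 3 in the Huh7 pair (37.4%). In Hep3B-C, hsa-miR-767-5p was therefore higher while hsa-miR-29a and hsa-miR-29c were lower. In Huh7-C, hsa-miR-767-5p was lower than in Huh7 by less than each of the 3, although its interval (-0.83 to -0.50) overlapped that of hsa-miR-29c. Per miRNA counts the 3 were lower in both HCSCs, by medians of -2.45 and -2.07, beside -0.34 and -0.15 for all miRNAs. At least 2-fold lower on that scale stood 3 of the 3 in the Hep3B pair (25.1% of all miRNAs) and 2 of the 3 in the Huh7 pair (24.4%). Hsa-miR-29c was at -0.68 (interval -1.25 to -0.15) in the Huh7 pair. On the same scale hsa-miR-767-5p was at 0.49 in the Hep3B pair, with an interval that held 0 (-0.05 to 1.11).

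Other miRNAs of the end of the X chromosome were read for comparison. Hsa-miR-224 and hsa-miR-452 come from GABRE, another GABA receptor subunit gene, with MIR452 lying 432506 bases from MIR105-1, and they were likewise found in the Huh7 line. Hsa-miR-452 had 0 and 3 counts in Hep3B and Hep3B-C but 9769 and 8478 in Huh7 and Huh7-C, and hsa-miR-224 had 0 and 1 but 2326 and 2662. Of the 8 miRNAs of Xq28 on this list, 3 had at least 10 counts in any library, all in the Huh7 and Huh7-C libraries (summed over the list, 1147.8 and 1047.6 TPM, against 0 and 0.259 TPM in Hep3B and Hep3B-C). Unlike miR-105 and miR-767, they were near the limit of detection in both Hep3B libraries. Their median log2 ratio in the Huh7 pair was -0.14, with 0 of the 3 at least 2-fold apart beside 44.8% of all miRNAs, and so few miRNAs say little against that share.

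The listed miRNAs of Xq27.3, from the miR-506 to miR-514 and miR-888 to miR-892 clusters, were almost absent. Of these 22, between 4 and 7 had a count in each library, and their sum was 15 counts in both parents, 45 in Hep3B-C and 33 in Huh7-C. The highest was hsa-miR-509-3p at 16 counts in Hep3B-C. The summed level of this list was 0.894 to 3.08 TPM.

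To find miRNAs of similar pattern, the summed level of the 3 members over the 4 libraries was compared with that of 544 other miRNAs with at least 10 counts in a library, by the Euclidean distance between log2(TPM + 0.1) centred on its mean. The 5 nearest were hsa-miR-3158-3p (distance 0.60), hsa-miR-3128 (0.68), hsa-miR-9* (0.84), hsa-miR-140-3p (0.89) and hsa-miR-3176 (0.92). Hsa-miR-105* stood at place 8 (0.99). Hsa-miR-3158-3p had 17 and 76 counts in Hep3B and Hep3B-C and 251 and 376 in Huh7 and Huh7-C, and hsa-miR-140-3p, the most abundant of the 5, had 2639, 9839, 37302 and 24839. Each was lowest in Hep3B, next in Hep3B-C and higher in both Huh7 libraries. With 4 libraries the likeness is loose: leaving out a library kept between 0 (Hep3B-C) and 3 (Huh7-C) of these 5, and ranking by Pearson correlation kept 0.

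**Figure D5:**
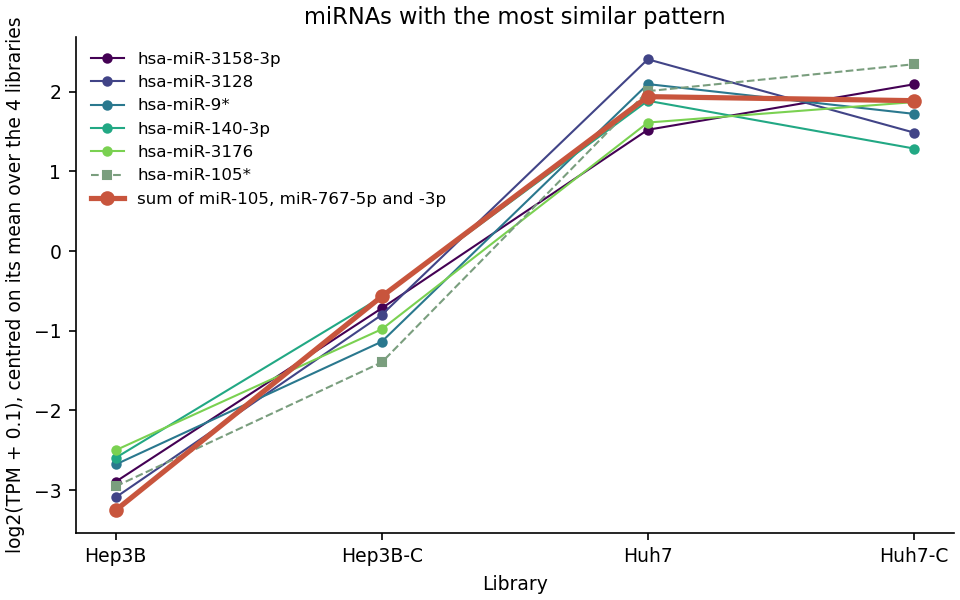
Log2(TPM + 0.1), centred on the mean over the 4 libraries, of the summed members, of the 5 nearest miRNAs and of hsa-miR-105*. Lines join single libraries of separate conditions to guide the eye, all 7 profiles are lowest in Hep3B, followed by Hep3B-C, and the summed members stand at nearly the same height in Huh7 and Huh7-C (144.9 and 139.9 TPM).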

How the data were processed

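Small RNA of 4 cell populations was sequenced on an Illumina Genome Analyzer II, with 1 library each. SOAP was the authors' aligner and NCBI Build 36.1 their genome. Before alignment they filtered out contaminants, redundancy and inserts below 18 nt. Afterwards, other small RNA classes were set aside and miRNAs were named by miRBase release 17. The deposited values are raw read counts per mature miRNA, without normalization. How redundancy was defined is not given in the sources used here. A single miRNA held up to 2566558 counts in a library, so identical reads were not all reduced to 1, but any partial removal would compress the counts and alter what their intervals cover.

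Here, TPM was computed with the total reads that the study's methods give for each library. Depth ranged from 1739278 to 5741567 miRNA counts. Ratios had 0.5 counts added, and miRNAs that reached 10 counts in a library of the comparison formed the background. With 1 library per group no test was run, and an absolute log2 ratio of at least 1, the study's fold threshold, stood in for a call. Intervals are 95% and exact. Those of the ratios were checked on simulated Poisson counts with known library sizes, where exact intervals hold by construction. The simulation had no spread between cultures and no duplicate reads, so it says nothing about these. As alternatives, library sizes came from total miRNA counts, TMM or DESeq2 size factors, with other count minimums, 1 count added, and hsa-miR-105* in the sum.

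The members, lists and measures were chosen with earlier results of these data known. The shares of hsa-miR-105 against hsa-miR-767-5p, the arms of all hairpins and the neighbouring pairs were added after the counts were seen. Named miRNAs were the members, hsa-miR-105*, the X-linked and miR-29 lists, cell type markers, miRNAs sharing a seed, and the 5 nearest in pattern. Sequences come from RefSeq (GRCh38.p14), where all 7 named strands matched by current name, and positions from GENCODE release 29. No coordinates were converted. Of 1284 hairpin names, 1011 matched RefSeq for the neighbouring pairs. Library sizes were obtained in edgeR 4.0.16 and DESeq2 1.42.0 (R 4.3.3). All else ran in Python 3.11.15 (scipy 1.17.1, pandas 2.3.3, numpy 2.4.6, matplotlib 3.10.9). The mRNA libraries were not analysed here.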

Additional observations from a re-analysis of the deposited data

Results flagged for a closer look

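Hsa-miR-767-5p had opposite directions in the pairs, with a log2 ratio of TPM of 2.25 in Hep3B-C against Hep3B and -0.66 in Huh7-C against Huh7. The difference between the pairs was not tested. The directions stayed opposite with TMM, at 0.84 (0.29 to 1.46) and -0.35 (-0.51 to -0.19), and with DESeq2 size factors, at 1.07 (0.53 to 1.69) and -0.09 (-0.25 to 0.07), an interval that held 0. Per miRNA counts they were 0.49 and -0.15 and both intervals held 0 (-0.05 to 1.11 and -0.31 to 0.01). Among the miRNAs of similar pattern, hsa-miR-3128 stood at 2.75 and -0.93 and hsa-miR-140-3p at 2.02 and -0.60, also untested. Both were picked for their likeness to the members over these same libraries, so their directions are not separate evidence. The 2.75 of hsa-miR-3128 rests on 2 counts in Hep3B. With total reads, hsa-miR-767-5p, hsa-miR-3128 and hsa-miR-140-3p each had the direction of the median of all miRNAs in the pair, 1.42 and -0.66. Per miRNA counts those medians were -0.34 and -0.15, and the 0.49 of hsa-miR-767-5p in the Hep3B pair had the opposite sign.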

How the results depend on the processing

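The log2 ratio of the summed members was 2.70 in Hep3B-C against Hep3B with total reads, and 0.94 with total miRNA counts (under 2-fold), 1.29 with TMM and 1.52 with DESeq2 size factors. In Huh7-C against Huh7 it changed sign, from -0.05 to 0.47, 0.27 and 0.52 in the same order. In Huh7 against Hep3B it was 5.21 against 2.83, 3.75 and 3.77, and in Huh7-C against Hep3B-C 2.46 against 2.36, 2.73 and 2.77. The share of miRNAs at least 2-fold apart in the Hep3B pair was 71.6% with total reads and 44.4%, 43.2% and 44.0% with the others. Between total reads and total miRNA counts, these values move by construction with the miRNA share of each library (10.4%, 35.2%, 54.1% and 37.8% in Hep3B, Hep3B-C, Huh7 and Huh7-C). The cause of the other moves was not tested. Adding 1 count, summing hsa-miR-105* with the members and other count minimums left values within their counting intervals or 1.5 times the share. Of 30 ratios of single members under other library sizes, 21 left their counting interval and 0 of those at least 2-fold changed direction. A fit of both HCSCs against both parents, paired by cell line, would leave 1 residual degree of freedom and was not run, since the members were chosen on these counts. Shares within the locus do not depend on the library size, and 3 counts of hsa-miR-767-3p in Huh7-C limit its ratios.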
